A study of Mus musculus with 6 samples.

Results

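The interleukins and interleukin receptors were taken as all genes of the deposited table whose symbol begins with Il and a digit. These were 85 genes, listed on 87 rows, of 21881 genes in the table. A symbol listed repeatedly was represented by its row with the highest mean. Interleukins are secreted signals between immune cells and the epithelia they live in, and their receptors are mostly pairs of membrane chains that pass the signal to JAK kinases and STAT factors or, in the Il1 and Il17 families, to adaptor proteins and NF-kappaB. Type 2 signalling is the branch known from allergy and worm infection: Il25 and Il33 are alarm signals released by epithelial cells, Il4, Il5 and Il13 are made by lymphoid cells in answer to them, and the receptor chains Il4ra, Il13ra1, Il13ra2, Il5ra, Il17rb (for Il25) and Il1rl1 (for Il33) receive them. In airway epithelium Il13 is known for inducing mucus, chemokines that draw eosinophils, and the chain Il13ra2, which binds Il13 tightly, has a short cytoplasmic tail and is generally regarded as a decoy.

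Transcripts were measured by RNA sequencing in olfactory epithelium of adult NMRI mice, either wildtype (WT, 3 libraries) or NKCC1-/- (KO, 3 libraries), that is, knocked out for Slc12a2, whose product NKCC1 carries sodium, potassium and chloride into cells. In each genotype 1 library came from a pool of mixed sex (2 epithelia of each sex), 1 from 3 male mice and 1 from 3 female mice. The labels name no further allele or agent and do not describe the knockout allele, and because each library is a pool, the spread between libraries is a spread between pools and not between mice. Values are FPKM, fragments scaled to transcript length and to the mapped fragments of the library. The libraries went through a normalization step with a nuclease that removes abundant sequences, so ratios between genes, and most of all those of abundant to rare genes, can be compressed. The libraries are given in the order mixed, male and female throughout.

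The mixed pools were shallow, at an estimated 3580000 (WT) and 3890000 (KO) fragments, against 11190000 to 13990000 for the other libraries, and for a transcript of 1 kb a single fragment was worth 0.279 FPKM in the WT mixed and 0.0715 in the WT male library. Slc12a2 was at 83.3, 40.2 and 35.99 FPKM in WT and at 28.0, 16.1 and 18.0 in KO, so every KO library lay below every WT library (adjusted p = 0.11, limma). The labelled tissue was checked on its defining genes: Omp, of mature olfactory neurons, was at 1209 to 2977 FPKM and Cyp2g1, of sustentacular cells, at 1285 to 3090 FPKM over the 6 libraries. The WT female library had the lowest median FPKM of genes above 0 (4.21, against 4.94 to 7.79 in the others) and the largest share of its FPKM in 10 genes (45.7%). This share was 33.5% in the KO mixed and 34.4% in the KO male library. It was 15.5, 16.4 and 16.9% in the WT mixed, WT male and KO female libraries. A large share in few genes lowers the FPKM of the other genes of that library. Within the female pools 87.3% of all tested genes were higher in KO, against 27.6% in the mixed and 23.8% in the male pools, so a gene that is merely higher in the KO than in the WT female pool follows most genes there. Likewise, a gene that is merely lower in the KO than in the WT mixed or male pool follows most genes in those pools. The WT female library was the lowest of the 6 in 20 of the 39 tested members and in 55.6% of all tested genes. Among marker lists of other cells, all 8 genes of mature neurons had negative differences with a median of -0.77, 5 at an unadjusted p under 0.05 and 3 without overlap, and 1 fell (Kirrel2). Of 5 tested B and plasma cell genes, 2 were higher at such a p and 1 rose (Igj), and of 5 tested squamous and basal genes, 3 were higher and 1 rose (Sprr1a). None of 6 sustentacular genes passed or had such a p in limma. Over all tested genes 4.26% were higher and 4.62% lower at such a p, and 5.24% were lower without overlap. The share that rose was 0.212% and the share that fell 0.624%. The part of these cells in the members' values was not tested.

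Of the 85 members, 12 were listed at 0 in every library, among them the cytokines Il2, Il3, Il9, Il20, Il24 and Il31. Another 34 had a mean below 0.5 FPKM over the 6 libraries and were not tested. In 4 of these 34 (Il13, Il20rb, Il12b and Il21) every KO library lay above every WT library and in 0 below, where this held for 5.77% and 3.58% of the 3881 genes of the table below the filter and above 0. Il12b and Il21 rested on an estimated 2.2 fragments or fewer per library, so their order carries little. The remaining 39 were tested, 13 of them ligands. Of these 39, 6 reached that mean in 1 genotype only (Il13ra2, Il25, Il6, Il1rn, Il1a and Il22), so a count over the tested members is no evidence that the family as a whole moved. The level was set by a few widely used receptor chains and by Il33. Il33 had the highest mean, 77.4 FPKM, and alone made up, on this compressed scale, 31.7 to 36.3% of the summed FPKM of all members in WT and 17.8 to 27.5% in KO. The next were Il6st, the gp130 chain shared by the Il6 family, with a mean of 26.7 FPKM, Il13ra1 with 24.9, Il10rb, the chain shared by Il10-type receptors, with 24.9, and Il11ra1 with 19.2. These 4 receptor chains overlapped in their ranges over the libraries, so their order is not resolved, whereas the lowest library of Il33 (43.7 FPKM) lay above the highest of each. In all, 32 members had a mean of at least 1 FPKM.

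KO and WT were compared with limma on log2(FPKM + 1), with Benjamini-Hochberg adjustment over all 15067 tested genes and a threshold of 0.05. A single member passed: Il13ra2 rose. Over all genes 0.212% rose and 0.624% fell, 0.836% together. At an unadjusted p under 0.05, 9 members were higher and 1 was lower, where the shares over all genes were 4.26% and 4.62%, 8.88% together. In 6 members every KO library lay above every WT library (Il13ra2, Il17rb, Il1r2, Il1r1, Il15ra and Il34) and in 1 below (Il18), where such separation was found in 7.46% and 5.24% of all tested genes, 12.7% together. The median log2 difference was 0.17 over the 39 members and 0.01 over all genes, and 29 members had a positive and 10 a negative difference, where 52.1% of all genes were positive. With 1 library left out the median of the members ran from 0.073, without the KO female library, to 0.32, without the WT mixed or the KO male library, and that of all genes from -0.14, without the WT female library, to 0.14, without the WT mixed library. By kind of pool the median of the members against that of all genes was 0.12 against -0.25 in the mixed, -0.05 against -0.20 in the male and 0.62 against 0.48 in the female pools.

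**Figure D1:**
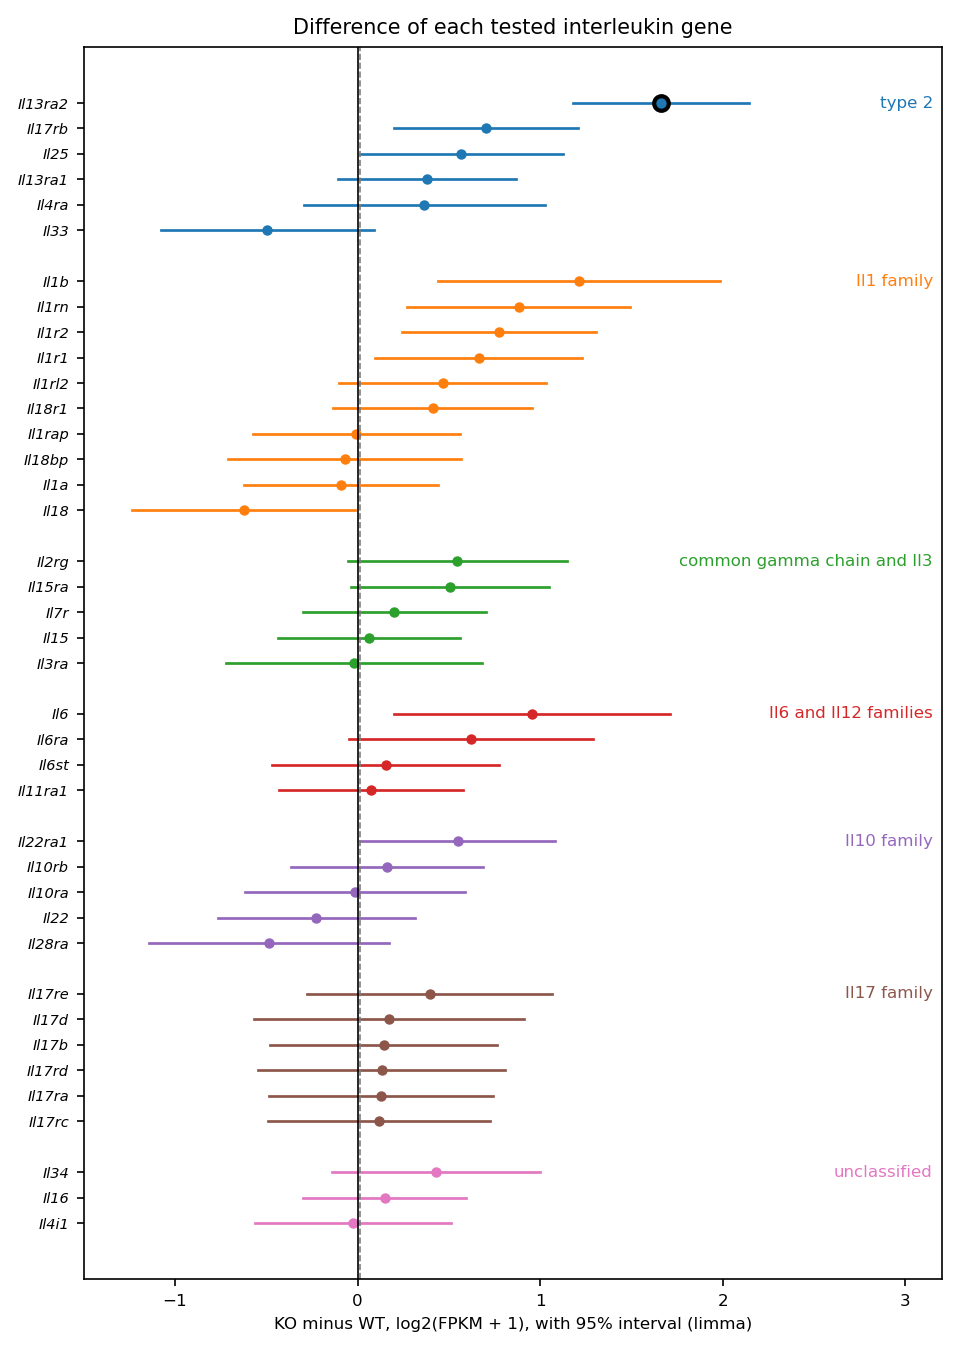
Difference of each of the 39 tested members, KO minus WT on the log2(FPKM + 1) scale (x axis), with its 95% interval from limma, grouped by family and coloured by it; the black ring marks the member with an adjusted p under 0.05 and the dashed line the median of all tested genes (0.01). Il13ra2 stands at 1.66 with an interval of 1.18 to 2.14, and the points of the Il17 family lie between 0.12 and 0.40.

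Il13ra2 was the member with the clearest difference. It was at 0.190, 0.208 and 0.141 FPKM in the 3 WT libraries and at 2.67, 2.13 and 3.50 in the 3 KO libraries, so that the lowest KO value lay far above the highest WT value in a gene that was near the limit of detection in WT. The means were 0.180 ± 0.035 and 2.77 ± 0.69 FPKM (SD, n = 3 each), a 15.4-fold difference, and the log2 difference was 1.66 ± 0.22 (SE, adjusted p = 0.0035, limma). Depending on the transcript length used, the WT value rested on an estimated 7.2 to 11.0 fragments over the 3 libraries together and the KO value on 110.3 to 169.6. Its adjusted p stayed between 8.31e-08 and 0.0315 in all 17 alternative settings. In bulk tissue more cells that express a gene and more RNA per cell cannot be told apart, here and for every other member.

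The promoter windows of 3 members are shown because they belong to the receptor that rose, to its ligand and to the most abundant member. Each is the 250 bases before the annotated start, from RefSeq on build GRCm38.p6, while the deposited values were made on mm9. Capitals mark a match to the palindrome TTC, any 4 bases, GAA, the spacing known for STAT6, or to the same with 3 bases between, known for other STAT factors. The windows lie at chrX:147429193-147429442 on the minus strand (Il13ra2), chr11:53634703-53634952 on the minus strand (Il13) and chr19:29924863-29925112 on the plus strand (Il33, the first of its listed starts).
Il13ra2: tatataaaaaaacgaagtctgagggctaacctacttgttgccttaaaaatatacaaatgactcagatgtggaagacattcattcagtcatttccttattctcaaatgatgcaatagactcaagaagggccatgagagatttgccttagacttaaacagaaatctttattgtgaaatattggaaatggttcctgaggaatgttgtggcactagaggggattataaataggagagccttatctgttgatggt
Il13: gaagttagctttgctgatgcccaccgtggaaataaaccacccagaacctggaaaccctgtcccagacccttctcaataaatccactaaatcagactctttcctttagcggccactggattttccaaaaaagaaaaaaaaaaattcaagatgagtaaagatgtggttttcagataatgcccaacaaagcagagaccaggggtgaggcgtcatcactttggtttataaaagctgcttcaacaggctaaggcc
Il33: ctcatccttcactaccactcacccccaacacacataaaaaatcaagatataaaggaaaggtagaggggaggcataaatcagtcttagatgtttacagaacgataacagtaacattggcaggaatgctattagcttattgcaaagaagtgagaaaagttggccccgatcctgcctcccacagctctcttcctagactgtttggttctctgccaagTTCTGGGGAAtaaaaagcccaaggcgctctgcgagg
The Il33 window held 1 match, of the STAT6 spacing, beginning 36 bases before the start, and the window of the other listed Il33 start (chr19:29945540-29945789) held none. The windows of Il13ra2 and Il13 held none, which says only that these letters are not within 250 bases of these starts.

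The other chain that binds Il13, Il13ra1, which with Il4ra forms the signalling receptor for both Il4 and Il13, was abundant in both genotypes. It was at 19.5, 24.0 and 20.9 FPKM in WT and at 23.8, 27.9 and 33.4 in KO, with overlapping ranges (log2 difference 0.38, 95% interval -0.11 to 0.87, adjusted p = 0.77, limma). Set against Il13ra1 in the same library, which takes out a scaling common to all genes of a library but not the compression of abundant transcripts, Il13ra2 amounted to 0.973, 0.869 and 0.675% of the Il13ra1 level in WT and to 11.2, 7.65 and 10.5% in KO. This percentage was higher in each KO pool than in any WT pool, although Il13ra1 stayed the more abundant chain throughout. Il4ra was at 5.74, 5.75 and 3.89 FPKM in WT and at 4.97, 5.81 and 10.7 in KO. Its groups overlapped and only the KO female library stood above the WT range by more than 0.1 FPKM (log2 difference 0.37, interval -0.29 to 1.03, adjusted p = 0.97, limma). The log2 difference was 0.074 when the KO female library was left out, 0.21 when the WT female one was, 0.56 when the KO mixed one was and 0.64 with neither mixed pool.

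Il13 itself was listed at 0 in all 3 WT libraries and was found in all 3 KO libraries, at 0.251, 0.427 and 0.915 FPKM. These low values correspond to an estimated 1.0, 6.1 and 11.2 fragments. Its mean was below the filter, so it was not tested in the main comparison, and no fold is given against values of 0. Without the filter its log2 difference was 0.59 ± 0.14 (SE) and its adjusted p 0.25 (limma), which did not pass. Il4 was at 0.620, 0.155 and 0 FPKM in WT and at 0, 0.166 and 0.197 in KO, about 1 fragment wherever it was found. Il5, the growth factor of eosinophils, and its receptor Il5ra were found in 2 and 1 of the 6 libraries, at no more than 0.0698 FPKM, so that no difference in Il4, Il5 or Il5ra was detectable at this depth.

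Il25 and its receptor chain Il17rb were both higher in KO in their mean, and neither passed. Il17rb was at 1.08, 1.06 and 0.524 FPKM in WT and at 2.39, 1.95 and 1.82 in KO. All KO values lay above all WT values, and in each kind of pool the KO level was 184 to 347% of the WT level (log2 difference 0.70 ± 0.23 SE, adjusted p = 0.27, limma). Il25 was at 0, 0.441 and 0.368 FPKM in WT and at 0.276, 1.18 and 1.31 in KO. Its shallow KO mixed library, with an estimated 1.0 fragment, lay below the WT male and female libraries, so the groups overlapped (log2 difference 0.57 ± 0.26 SE, adjusted p = 0.54, limma). In the nose and gut Il25 is known as a product of tuft cells and their nasal relatives, the solitary chemosensory cells. Of 8 markers of these cells 6 were tested. None passed in limma and all 6 were higher at an unadjusted p under 0.05, where 4.26% of all genes were. Among them was the channel Trpm5, at 3.21, 3.01 and 1.74 FPKM in WT and at 5.64, 7.66 and 11.8 in KO. Another, Gnat3, reached the filter mean through its KO libraries only. The 8 markers summed to 14.6 to 26.2 FPKM in WT and 33.2 to 53.5 in KO. A large part of these sums was Alox5ap, at 13.0, 10.5 and 8.11 FPKM in WT and 11.3, 21.1 and 19.5 in KO, with overlapping groups. The WT female library was the lowest of the 6 in all 6 tested markers, where it was in 55.6% of all genes. Chat and Sucnr1 were below the filter, the second listed at 0 in 5 libraries. Their part in the level of Il25 was not tested.

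Il33, which is stored in the nuclei of epithelial and endothelial cells, was at 95.4, 90.7 and 80.7 FPKM in WT and at 43.7, 60.0 and 93.8 in KO. The KO mixed and male libraries lay below all WT libraries and the KO female library within their range. The KO level was thus 45.8, 66.2 and 116% of the WT level by kind of pool, and the difference did not pass (log2 difference -0.49, interval -1.08 to 0.09, adjusted p = 0.71, limma). Leaving out the KO mixed library gave -0.24, leaving out the KO female one -0.78, and leaving out the mixed pools of both genotypes -0.19. The direction by kind of pool was that of most genes, whose median log2 differences were -0.252 (mixed), -0.205 (male) and 0.48 (female). In each kind of pool the ratio of Il33 to Il13ra1 was lower in KO, at 4.90, 3.78 and 3.86 in WT and 1.84, 2.15 and 2.81 in KO. Il13ra1 itself was at 122, 116 and 160% of its WT level. The lower ratio is therefore not by itself a lower Il33, which was at 116% in the female pools. Il1rl1, the receptor of Il33, was low at 0.104 to 0.230 FPKM in WT and 0.193 to 0.719 in KO, with overlapping groups and a mean below the filter.

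**Figure D2:**
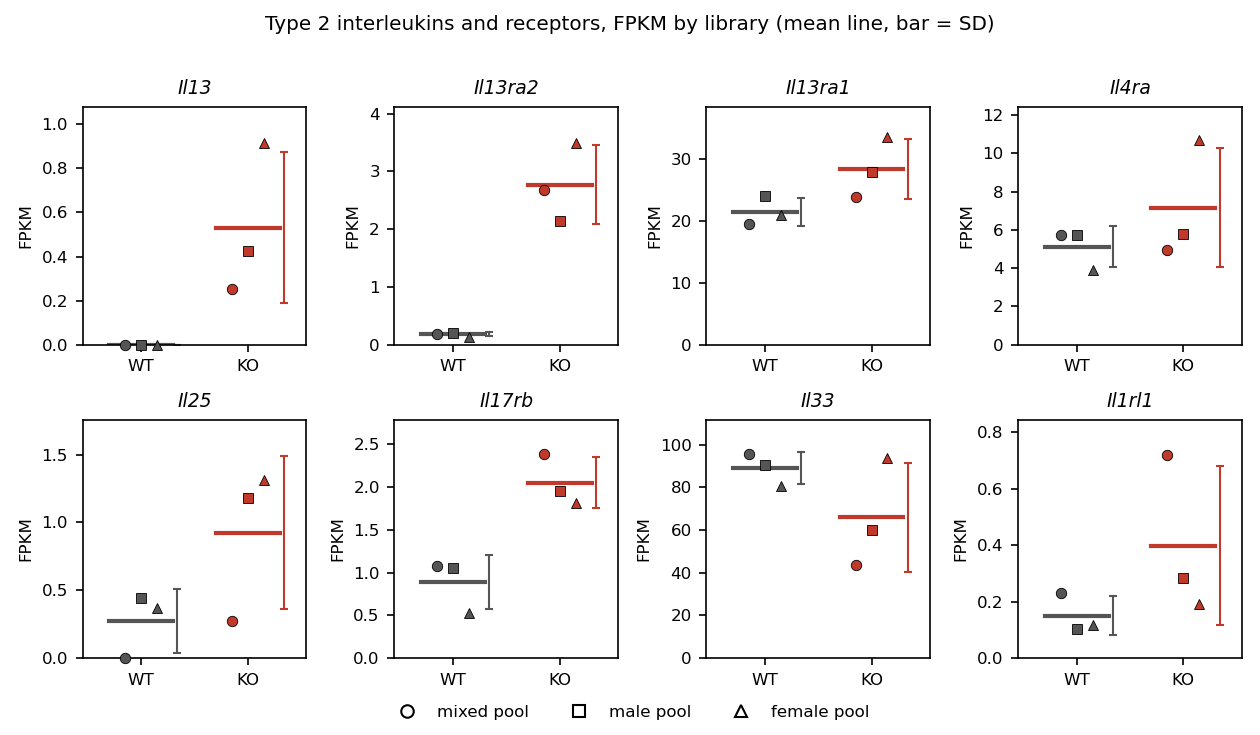
FPKM (y axis, linear, from 0) of 8 type 2 genes in the 3 WT and 3 KO libraries; the symbol gives the kind of pool, the line the mean and the bar the SD (n = 3). Il13, Il13ra2 and Il17rb are the panels in which no KO library reaches down to a WT library, and in Il33 the KO female pool lies within the WT range.

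Genes outside the family, grouped here as downstream and effector genes of type 2 signals, were described from a list. The list was chosen with earlier results of these data known, so its direction is no independent evidence. Whether each of its genes answers type 2 signals in this tissue was not tested. Of the 29 genes of this list 23 were tested, and 8 rose and 0 fell, where 0.212% of all genes rose. The median log2 difference was 1.20, and all 23 were positive, where 52.1% of all genes were. Of the 23, 5 reached the filter mean in 1 genotype only, where 483 of all 15067 tested genes did. Retnla and Ccl11, which are among the 8, reached it through their KO libraries only. The count and the median are therefore no evidence that the list as a whole moved. The 8 were Chi3l4 and Chi3l3, chitinase-like proteins, Fcgbp, a mucus protein, Retnla, a resistin-like protein, Alox12e, a lipoxygenase, Clca2, of the family of chloride channel regulators, Ccl11, a chemokine for eosinophils, and Pigr, which carries immunoglobulin across epithelia. Ccl11 was at 0.588, 0.390 and 0.209 FPKM in WT and at 4.81, 4.32 and 6.44 in KO, and Chi3l3 at 5.42, 6.32 and 2.07 and at 25.4, 14.2 and 32.1. Chi3l3 and Chi3l4 are close copies, so fragments may be divided between them and the value of each is uncertain. Spdef, a factor of mucous cells, lay just outside the threshold (7.69, 11.8 and 10.9 against 24.0, 22.8 and 21.5 FPKM, adjusted p = 0.052, limma). Alox15 (adjusted p = 0.088) and Ccl17, a chemokine for T helper cells (adjusted p = 0.20, limma), did not pass either.

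None of 19 tested JAK-STAT mediators passed in limma. At an unadjusted p under 0.05, 4 were higher and 0 lower, where the shares over all genes were 4.26% and 4.62%. These 4 were Cish, Socs1 and Socs3, feedback inhibitors that cytokine receptors induce, and Csf2rb2, a beta chain of the Il3 receptor. Cish was at 2.52, 2.38 and 3.03 FPKM in WT and at 8.31, 4.90 and 10.6 in KO without overlap (log2 difference 1.25 ± 0.30 SE, adjusted p = 0.083, limma). Socs3 was at 4.60, 6.06 and 2.63 in WT and 9.73, 6.70 and 10.9 in KO (adjusted p = 0.27, limma). Stat6, the factor that Il4 and Il13 receptors use, was at 10.9, 11.9 and 6.94 in WT and 13.4, 11.6 and 14.1 in KO, with overlapping groups (adjusted p = 0.85, limma). Of 22 mediators of Il1 and Toll-type receptors none passed in limma, and at an unadjusted p under 0.05, 0 were higher and 1 was lower, Tollip, an inhibitor of that pathway, at 116.2, 105.3 and 67.4 FPKM in WT and 49.9, 47.9 and 67.2 in KO. Next by unadjusted p came Nfkbiz and Relb, of the NF-kappaB system, with log2 differences of 0.69 and 0.50 (adjusted p = 0.62 and 0.71, limma). The list medians were 0.29 and 0.20, where that of all genes was 0.01. The WT female library was the lowest of the 6 in 17 of the 19 JAK-STAT and 16 of the 22 Il1 and Toll-type mediators, where it was in 55.6% of all genes, and its part in these medians was not tested.

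**Figure D3:**
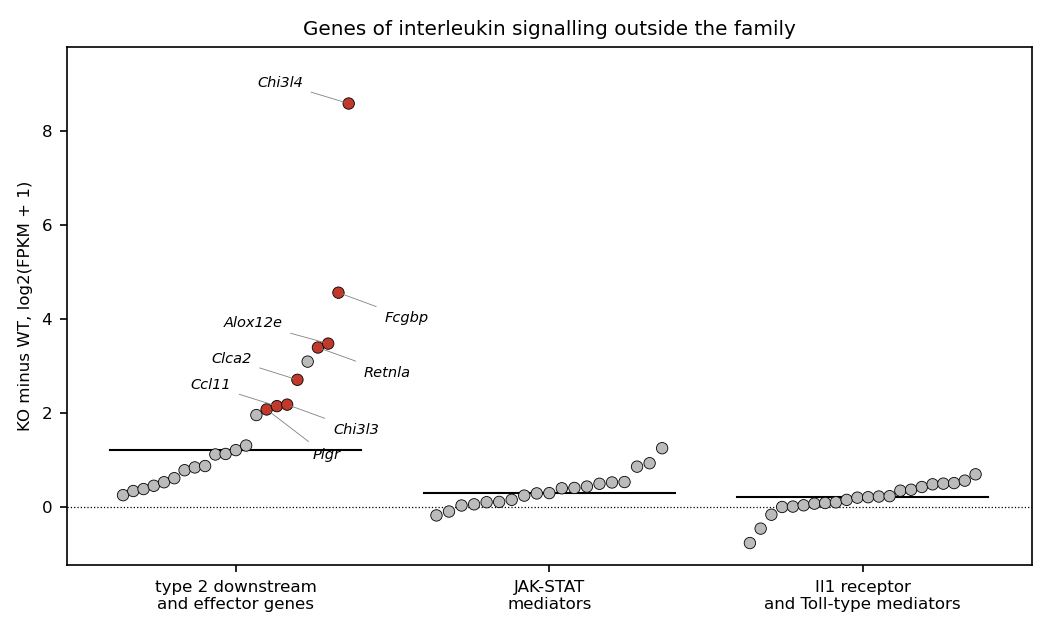
Log2 difference, KO minus WT on log2(FPKM + 1) (y axis), of the tested genes of 3 lists outside the family, ordered within each list; red points have an adjusted p under 0.05 in limma and the black lines are the list medians (1.20, 0.29 and 0.20). The 8 red points are all in the list of type 2 downstream and effector genes, which was chosen with earlier results known.

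Markers of cells that make or receive type 2 signals were sparse. Of 7 eosinophil markers 6 were in the table and 2 tested, with none passing and none at an unadjusted p under 0.05 in limma. Their sum was 2.30 to 9.44 FPKM in WT and 4.32 to 15.4 in KO. Most of it was Prg2, at 7.96, 1.25 and 3.92 FPKM in WT and 5.84, 14.0 and 3.22 in KO, higher in KO in the male pools only. Epx, the eosinophil peroxidase, was at 0.0262 to 0.430 FPKM in WT and 0.0656 to 0.598 in KO. Of 12 markers of T and innate lymphoid cells 5 were tested and none passed, with 1, Cd3g, higher at an unadjusted p under 0.05, and the sums were 4.75 to 8.85 FPKM in WT and 9.28 to 11.5 in KO. Gata3, a factor of type 2 lymphoid cells, stayed at or below 0.262 FPKM in every library. Of the 8 mast cell markers 3 were tested and none passed, 1 (Tpsb2) was higher at an unadjusted p under 0.05, the sums were 18.7 to 26.2 FPKM in WT and 22.3 to 33.4 in KO, most of it from Hdc, and Ms4a2 was at 0 throughout. The 2 basophil markers were below the filter, at sums of 0 to 0.157 FPKM in WT and 0 to 0.707 in KO. Over all tested genes 4.26% were higher at an unadjusted p under 0.05 in limma. The part of these cells in the values of the type 2 members was not tested.

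In the Il1 family, whose signals drive acute inflammation, none of the 10 tested members of 18 passed in limma. At an unadjusted p under 0.05, 4 were higher and 1 was lower, where the shares over all genes were 4.26% and 4.62%. The 4 were the cytokine Il1b, its antagonist Il1rn, the signalling receptor Il1r1 and the decoy receptor Il1r2. Of these, Il1rn reached the filter mean through its KO libraries only. Il1b was at 1.10, 4.41 and 1.45 FPKM in WT and at 7.68, 4.35 and 6.48 in KO. The KO male pool stood at 98.6% of the WT male pool, and the KO mixed and female pools at 699 and 446% of their WT counterparts. The log2 difference was 1.21 ± 0.36 (SE, adjusted p = 0.19, limma), and it passed with 1 of the 6 libraries left out, the WT male one (1.63, adjusted p = 0.048). The adjusted p in limma was 0.52 without the KO mixed library, 0.50 without the KO female library and 0.078 to 0.15 without any other, and without both mixed pools the log2 difference was 0.80 (adjusted p = 0.54). Il1rn had the same arrangement, at 0.386, 0.992 and 0.0897 FPKM in WT and 1.96, 0.892 and 2.37 in KO (adjusted p = 0.25, limma).

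Il1r2, which binds Il1 without signalling, was at 0.824, 1.32 and 0.413 FPKM in WT and at 2.08, 1.87 and 2.40 in KO (log2 difference 0.78 ± 0.25 SE, adjusted p = 0.24, limma). Il1r1 was at 1.13, 1.50 and 1.18 in WT and at 3.96, 1.99 and 2.11 in KO (adjusted p = 0.41, limma). In both receptors the groups did not overlap, and the gap was widest between the mixed pools for Il1r1 and between the female pools for Il1r2. Il18, a cytokine kept as a precursor in epithelia, was the only tested member with all KO libraries below all WT libraries, at 8.40, 7.68 and 8.21 FPKM in WT and 3.33, 4.86 and 7.12 in KO (log2 difference -0.62 ± 0.28 SE, adjusted p = 0.55, limma). Its receptor Il18r1 and its binding protein Il18bp had means of 1.71 and 2.93 FPKM in WT and 2.64 and 2.58 in KO, with adjusted p of 0.79 and 1.0 (limma). Il1rl2, the receptor of the Il36 cytokines, was at 0.834, 1.12 and 0.515 in WT and 2.40, 0.849 and 1.47 in KO, with overlapping groups (adjusted p = 0.72, limma). Il1rap, the accessory chain shared by Il1 and Il33 receptors, was at 2.93 ± 0.88 and 2.86 ± 0.41 FPKM (SD, n = 3 each), with a 95% interval of the log2 difference of -0.57 to 0.56.

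Macrophages and neutrophils are known sources of Il1b. All 8 macrophage and dendritic markers were higher at an unadjusted p under 0.05 in limma, where 4.26% of all genes were, and none passed. The sums were 88.9 to 148.97 FPKM in WT and 149.5 to 246 in KO. A large part of them was H2-Aa, at 17.1, 55.7 and 36.2 FPKM in WT and 43.0, 104.8 and 73.1 in KO, with overlapping groups. Of 6 neutrophil markers, none passed in limma or had an unadjusted p under 0.05, and the sums were 236 to 428 FPKM in WT and 182 to 410 in KO. The log2 difference was negative in 5 of them and positive in 1, with a median of -0.40. Their part in the Il1 values was not tested.

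Il6, picked for description with its values known, was listed at 0 in 3 libraries and reached the filter mean through its KO libraries only. It was at 0, 0.160 and 0 FPKM in WT and at 2.40, 0 and 1.48 in KO, so the KO male library lay with the WT libraries while the other 2 KO libraries lay well above them. The log2 difference of 0.96 ± 0.35 (SE) did not pass (adjusted p = 0.34, limma). Without the KO male library it was 1.47 (adjusted p = 0.0071) and without the WT mixed library 0.92 (adjusted p = 0.017). It did not pass in limma without the WT male library (adjusted p = 0.40), with the WT female one left out (adjusted p = 0.19) or with the KO female one left out (log2 difference 0.81, adjusted p = 0.74), and without the KO mixed library its mean was below the filter. Il6ra, the Il6-binding chain, was at 2.59, 2.17 and 0.630 FPKM in WT and 3.62, 2.58 and 3.11 in KO, with a small overlap between the WT mixed and the KO male libraries (adjusted p = 0.63, limma). Its partner Il6st had means of 25.7 ± 9.03 (WT) and 27.8 ± 5.22 FPKM (KO; SD, n = 3), and Il11ra1 of 18.6 ± 2.80 and 19.7 ± 2.89. For Il11ra1 the near-identical copy Il11ra2 was listed at 0, so its value may hold fragments of both.

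**Figure D4:**
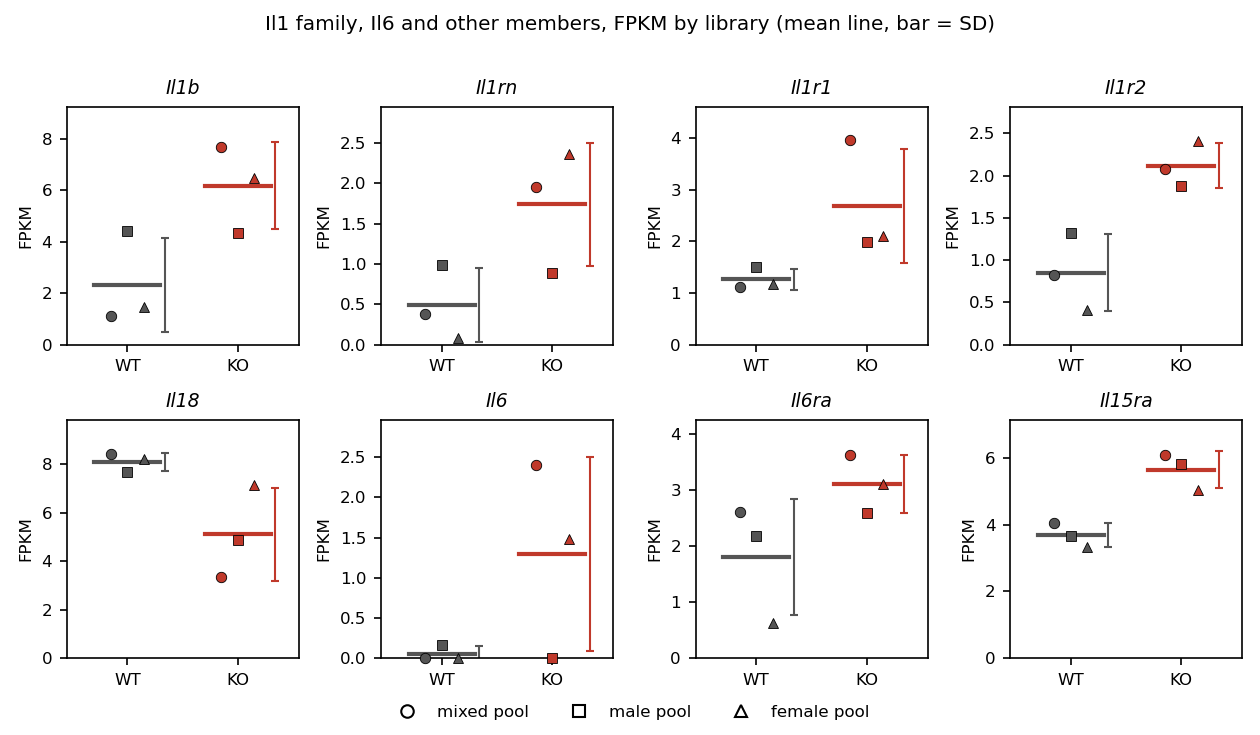
FPKM (y axis, linear, from 0) of 8 members of the Il1, Il6 and common gamma chain families in the 3 WT and 3 KO libraries; the symbol gives the kind of pool, the line the mean and the bar the SD (n = 3). In Il1b, Il1rn and Il6 the male KO pool lies at or below the male WT pool while the mixed and female KO pools lie above all WT libraries.

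Of the common gamma chain family, which serves lymphoid growth signals, 5 of 14 members were tested and none passed or had an unadjusted p under 0.05 in limma. Il15ra, which presents Il15 to neighbouring cells, was at 4.04, 3.67 and 3.33 FPKM in WT and at 6.10, 5.82 and 5.03 in KO. Its groups did not overlap and by kind of pool the KO level stood at 151, 159 and 151% of the WT level (log2 difference 0.51, interval -0.03 to 1.05, adjusted p = 0.63, limma). Its ligand Il15 had a mean of 1.39 FPKM in WT (SD 0.31) and 1.50 in KO (SD 0.30). Il2rg, the common gamma chain itself, was at 0.912, 2.65 and 1.57 in WT and 2.63, 3.30 and 2.58 in KO, overlapping between the WT male library and 2 KO libraries (adjusted p = 0.65, limma). Il3ra was at 0.889 FPKM in the KO mixed library and at 1.77 to 3.56 in the other 5.

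In the Il10 family, none of the 5 tested members of 14 passed in limma. At an unadjusted p under 0.05, 1 was higher and 0 lower, where the shares over all genes were 4.26% and 4.62%. That one was Il22ra1, the Il22-binding chain of epithelia, at 0.167, 0.972 and 0.456 FPKM in WT and 1.69, 1.07 and 0.878 in KO, with the WT male library above the KO female one (adjusted p = 0.54, limma). It was picked for description with its values known. Il28ra, the receptor of interferon lambda, was at 11.6, 6.81 and 4.92 in WT and 5.54, 4.27 and 5.18 in KO, overlapping and highest in the WT mixed library (adjusted p = 0.81, limma). Il10rb and Il10ra were at 23.4 ± 4.43 and 2.51 ± 1.08 FPKM in WT, against 26.3 ± 5.39 and 2.37 ± 0.30 for KO (SD over 3 libraries).

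In the Il17 family, which defends epithelia against microbes, all 6 tested members of 9 had small positive differences and none passed or had an unadjusted p under 0.05 in limma. The log2 differences ran from 0.12 for Il17rc to 0.40 for Il17re. The receptor chains Il17ra, Il17rc, Il17rd and Il17re were at 2.70 to 7.89 FPKM in WT and 4.02 to 10.5 in KO, and for each of these 4 the WT female library was the lowest or, for Il17rc, the second lowest of the 6. The inflammatory cytokines Il17a and Il17f were found in 2 and 1 libraries, at no more than 0.289 FPKM. Il17d, a more widely expressed relative, was at 1.67, 5.50 and 4.89 in WT and 3.61, 3.93 and 5.45 in KO, and Il17b at 0.905 ± 0.235 and 1.22 ± 0.94 (SD, n = 3 each).

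Among the members in none of these families, Il34, a ligand of the macrophage receptor Csf1r, was at 1.56, 2.25 and 2.68 FPKM in WT and 2.71, 2.88 and 4.21 in KO. Its groups did not overlap, although the KO mixed library lay barely above the WT female library (log2 difference 0.43, adjusted p = 0.79, limma). Il16, a chemoattractant of T cells, and Il4i1, an amino acid oxidase of immune cells, were at 0.684 ± 0.200 and 1.60 ± 0.53 FPKM in WT, against 0.860 ± 0.153 and 1.53 ± 0.35 for KO (SD over 3 libraries).

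Whether the KO difference moved with the sex of the pool was tested as the product of genotype and female share. No member passed in limma, and 3 had an unadjusted p under 0.05 (Il1rn, Il17b and Il6), where over all genes 0.126% passed and 4.15% had such a p. With 2 residual degrees of freedom this test had little reach, and the male and the female pools are 1 library per genotype each.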

How the data were processed

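Values are the FPKM that the authors deposited, 1 per gene symbol and library. The submitters' processing notes name mouse build mm9 and, as tools, Cufflinks 1.3.3, Cuffdiff, Bowtie and TopHat2 2.0.7, whose settings and annotation the sources do not give. The FPKM unit was taken from the header form and the values. Per the labels' protocols, libraries underwent DSN (duplex-specific nuclease) normalization, which in general compresses differences of abundant transcripts. Columns that name no sex were taken as the mixed pools, since no other library remained.

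Genes whose mean over the 6 libraries reached 0.5 FPKM were fitted on log2(FPKM + 1) with limma 3.58.1 (R 4.3.3), whose prior variance followed the mean. Log2 differences understate changes of low genes. The fit was also run on simulated data with independent normal errors and no shift common to a library. That simulation cannot show how the fit behaves under the shifts between these libraries. Replicates are 3 pools per genotype, and p-values reflect their spread only. Alternatives were other pseudocounts, filters, scalings and variance priors, terms for the kind of pool, and leaving out libraries. Depth was estimated from the spacing of low values in genes with 1 transcript of at least 1200 nt in GENCODE (GRCm38), less 150 nt, and is approximate; intervals of counts are not given. An exact 0 may be a failed estimate.

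Members and lists were chosen with earlier results of these data known. Named were all type 2 members, members past the threshold, per family up to 4 members of at least 1 FPKM with the smallest p and the 3 of highest mean, and per pathway list the genes past the threshold and up to 3 more; genes named outside this rule are Csf2rb2, Stat6, Il6, Il22ra1, Il20rb, Il18r1, Il18bp, Il1rl2, Il1a, Il22, marker genes and genes listed only as low or at 0.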

Additional observations from a re-analysis of the deposited data

How the results depend on the processing

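Il13ra2 passed in limma in all 17 alternative settings, with log2 differences of 1.52 to 3.34, the highest at a pseudocount of 0.1. The number of members that rose was 1 in most settings, 4 with the kind of pool as a replicate block (Il13ra2, Il1b, Il1rn and Il6) and 1 to 2 with 1 library left out. No member fell in any of the 17. In limma with the block, Il1b had an adjusted p of 0.020, Il1rn of 0.023 and Il6 of 0.0013. Il13ra2, Il1rn and Il6 reached the filter mean through their KO libraries only. With the block 150 of all 15067 genes rose and 290 fell. Pools of the same kind share sex and a similar estimated depth but not the animals. Their deviations from the genotype means correlated at 0.36 (mixed), 0.21 (male) and -0.09 (female). With 3 libraries per genotype these values do not decide whether a block is needed. The main comparison was planned without it, and the block is given here only.

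Among all genes 32 rose and 94 fell. These counts were 12 and 18 without the filter, 72 and 193 with median scaling, 93 and 177 with quantile normalization, 143 and 190 without both mixed pools, 150 and 290 with the replicate block, 88 and 201 with a term for the mixed pools and 67 and 142 with a term for the female share. With 1 library left out they ran from 15 to 191 and from 27 to 477. The cause was not tested. With 1 library left out an arm has 2 samples.

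Of 604 alternative values of the 36 named members with a test, 568 kept direction and side of the threshold, 6 passed newly and 30 turned direction, none of them in a member past the threshold. Without both mixed pools the log2 difference was 0.26 for Il10ra (and 0.0077 at a pseudocount of 0.1), -0.13 for Il17d, 0.22 for Il18bp, 0.10 for Il1rap and 0.44 for Il3ra. With 1 library left out it ran from -0.26 to 0.20 for Il10ra, from -0.00076 to 0.28 for Il10rb, from -0.041 to 0.18 for Il11ra1, from -0.048 to 0.16 for Il15, from -0.18 to 0.43 for Il17b, from -0.23 to 0.41 for Il17d, from -0.11 to 0.26 for Il17ra, from -0.10 to 0.33 for Il17rc, from -0.16 to 0.38 for Il17rd, from -0.33 to 0.21 for Il18bp, from -0.12 to 0.17 for Il1rap, from -0.27 to 0.37 for Il3ra, from -0.20 to 0.091 for Il4i1 and from -0.16 to 0.35 for Il6st. The shallow mixed pools limit members under 1 FPKM.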

Other observations

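Il20rb, a receptor chain of the Il20 group of cytokines, was at 0.220, 0.331 and 0.211 FPKM in WT and 0.507, 0.415 and 0.478 in KO, an estimated 2.1 to 14.8 fragments per library with its longest transcript. In the fit without a filter its adjusted p was 0.48 (limma). It was picked with its values known.

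The palindrome TTC, any 4 bases, GAA, searched in the 300 bases from 250 before to 50 after each RefSeq start (build GRCm38.p6, both strands), was found at 14 of the 65 members with a window, in 17 of their 80 windows, and in 6.95% of all 32851 windows. The same with 3 bases between, the spacing of other STAT factors, was found at 10 members, in 10 windows, and in 8.30% of all windows, and 1 member window held both. The members with 4 bases between include Il33, Il18, Il1rn and Il4. Windows of 1 gene can overlap, base composition was not matched, and these letters are a description and not binding sites.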
